A study of Mus musculus with 24 samples.

Results

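The genes described here encode S100 proteins, small proteins of the EF-hand kind, most of which bind calcium. They were chosen by symbol: *S100a4*, *S100a6*, *S100a8*, *S100a9*, *S100a10*, *S100a11* and *S100a13*, that is 7 of the 18 symbols starting with S100 among the 32285 genes of the deposited matrices. The choice was made with earlier results of these data known, among them T cell contrasts of PancVAX with the isotype control and of the triple combination with PancVAX. Levels are therefore given as descriptions, and each vaccine effect is also given without the Isotype Control and PancVAX pools where that changes a call.

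The study asked how a neoantigen vaccine and checkpoint antibodies change the cells of a mouse pancreatic tumor. Wild-type male C57BL/6 mice, 6 to 7 weeks old when implanted, carried subcutaneous tumors of Panc02, a mouse pancreatic adenocarcinoma line, and 8 treatments were compared. They were Isotype Control, PancVAX and the antibodies Anti-CTLA-4 and Anti-PD-1 each alone, each pair of these and the triple combination. The study describes its PancVAX mice as given isotype antibodies too. Each treatment gave a whole tumor library and a library of cells enriched on Percoll, a density medium that concentrates leukocytes, and so 16 5′ single-cell RNA libraries. PancVAX is a set of peptides carrying mutations of Panc02, given on days 12 and 19 at 50 μg, an amount that the methods state per peptide. The study's peptide vaccines held adjuvants, and an effect of PancVAX joins both. Anti-PD-1 was given at 100 μg from day 12, repeated within each week, and Anti-CTLA-4 at 100 μg on days 15 and 22. Tumors were taken on day 38. These days are those of the labels and of the study's methods. A figure legend of the study differs on the second Anti-CTLA-4 dose and the day of harvest. The cells of several mice were joined before capture, so the 2 libraries of a treatment were summed into 1 pool. The 8 pools, 4 with PancVAX and 4 without, were the units of the tests of treatment. P-values then measured the spread between pools, and no treatment had a second pool. The tests of Percoll against whole tumor and of the vaccine effect between preparations took the 16 libraries as units. The preparation was also the sequencing batch, and both cannot be told apart.

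S100 proteins work mainly as dimers, and most expose a binding surface when calcium rises. They hold myosin, annexins and other partners of the membrane and the cytoskeleton. S100a8 and S100a9 form calprotectin, a zinc-binding and calcium-binding complex that fills the cytosol of neutrophils and, once released, acts on the receptors Tlr4 and RAGE. In T cells, *S100a4*, *S100a6*, *S100a10* and *S100a11* are known as genes that are low in naive cells and higher after activation and in memory cells.

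All 7 genes lie on mouse chromosome 3 (coordinates of GRCm38.p6, from RefSeq). *S100a13* (ENSMUSG00000042312) spans chr3:90514233-90524581. *S100a4* (ENSMUSG00000001020) spans chr3:90603770-90606045 and *S100a6* (ENSMUSG00000001025) chr3:90612894-90614414. *S100a8* (ENSMUSG00000056054) spans chr3:90669071-90670034, and its neighbor *S100a9* (ENSMUSG00000056071), on the other strand, chr3:90692630-90695721. *S100a11* (ENSMUSG00000027907) and *S100a10* (ENSMUSG00000041959) lie farther along, at chr3:93520496-93526288 and chr3:93555117-93564645. Promoters were found for the members other than *S100a10* in the RefSeq table (GRCm38.p6) and are shown for 4 genes, the calprotectin pair, which shared its pattern over cells, and *S100a4* and *S100a11*, which were called in 5 of 5 comparisons between cell states. Each line holds the 150 bases before the annotated start, 5′ to 3′ on the strand of the gene, and capitals mark matches to TATAAA, the core promoter box, or to TGANTCA, an AP-1 site, searched on both strands.
*S100a8*, chr3:90668921-90669070, plus strand: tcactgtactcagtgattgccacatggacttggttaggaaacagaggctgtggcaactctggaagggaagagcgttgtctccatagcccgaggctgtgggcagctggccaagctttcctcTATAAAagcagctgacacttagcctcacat
*S100a9*, chr3:90695722-90695871, minus strand: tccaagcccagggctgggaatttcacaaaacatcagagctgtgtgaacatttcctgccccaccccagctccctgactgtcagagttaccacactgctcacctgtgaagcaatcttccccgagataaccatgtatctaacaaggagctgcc
*S100a4*, chr3:90603620-90603769, plus strand: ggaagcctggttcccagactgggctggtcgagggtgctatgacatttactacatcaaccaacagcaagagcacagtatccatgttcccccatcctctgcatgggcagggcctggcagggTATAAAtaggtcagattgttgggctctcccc
*S100a11*, chr3:93520346-93520495, plus strand: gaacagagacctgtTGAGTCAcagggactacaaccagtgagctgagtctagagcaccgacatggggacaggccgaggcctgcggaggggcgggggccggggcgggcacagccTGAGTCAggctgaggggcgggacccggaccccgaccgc
*S100a8* held TATAAA with its first base 30 bases before the start and *S100a4* 31 bases before it, and *S100a11* held TGAGTCA at 136 and 38 bases before the start. The windows of *S100a9*, *S100a6* and *S100a13* held neither motif. The window of *S100a13*, chr3:90514285-90514434, lay inside the span of the gene given above and not before it. Of 32851 promoters, 7.57% held TATAAA or its reverse complement TTTATA, and 4.24% held TGANTCA, which reads the same on both strands.

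The libraries held 144994 barcodes and 77132398 to 176233225 unique molecular identifiers (UMIs, each standing for 1 captured RNA molecule) per library. The study's limits on genes, UMIs and mitochondrial RNA left 57357 barcodes (39.56%), and 44740 of these fell into gates defined by marker genes, none of them an S100 gene. The T gate held 13730 cells, the neutrophil gate 7609, the macrophage gate 14121, the stromal gate 931 and the tumor gate 5835, and a B gate of 2514 cells served as a reference for free RNA. Median UMIs per cell ran from 1488 in the neutrophil gate to 6359 in the tumor gate. Markers kept out of the gates were highest in their own gate for 5 of 5 T, 11 of 11 neutrophil, 3 of 4 macrophage, 4 of 4 stromal and 3 of 3 B genes, but for only 1 of 4 tumor genes, whose summed level was 34.1 CPM in that gate and 1.27 to 85.6 CPM in the others. "Tumor gate" is therefore a name for keratin and Epcam positive cells. The upper limits removed 86.68% of 43799 such cells. Of the *S100a4* UMIs 92.39% lay in barcodes outside the limits, against 22.11% of those of *S100a8*. The Percoll library of PancVAX + Anti-PD-1 stood apart, with 7413 of 11979 barcodes passing and 1141 tumor gate and 226 stromal gate cells. Of the gated cells, 2579 carried a barcode sequence found in more than 1 library.

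The calprotectin genes were neutrophil genes in all 8 pools, as the plot of levels by gate shows. *S100a8* stood at 13442 to 20720 CPM (counts scaled to 1000000 UMIs of the sum, median 17144) in the neutrophil gate, lowest in Isotype Control and highest in Anti-PD-1 + Anti-CTLA-4. In the gate next in order, the macrophage gate, it was 10.2 to 54.0 CPM (median 33.7), and the medians differed 509-fold. *S100a9* stood at 20235 to 31150 CPM (median 24544) in the neutrophil gate and at 17.8 to 81.1 CPM (median 47.8) in the macrophage gate, a 514-fold difference. Of the neutrophil gate cells, 85.39% held a *S100a8* UMI and 86.57% a *S100a9* UMI. Below the neutrophils, the T, macrophage, stromal and tumor gates overlapped with their neighbors in order for both genes.

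**Figure D1:**
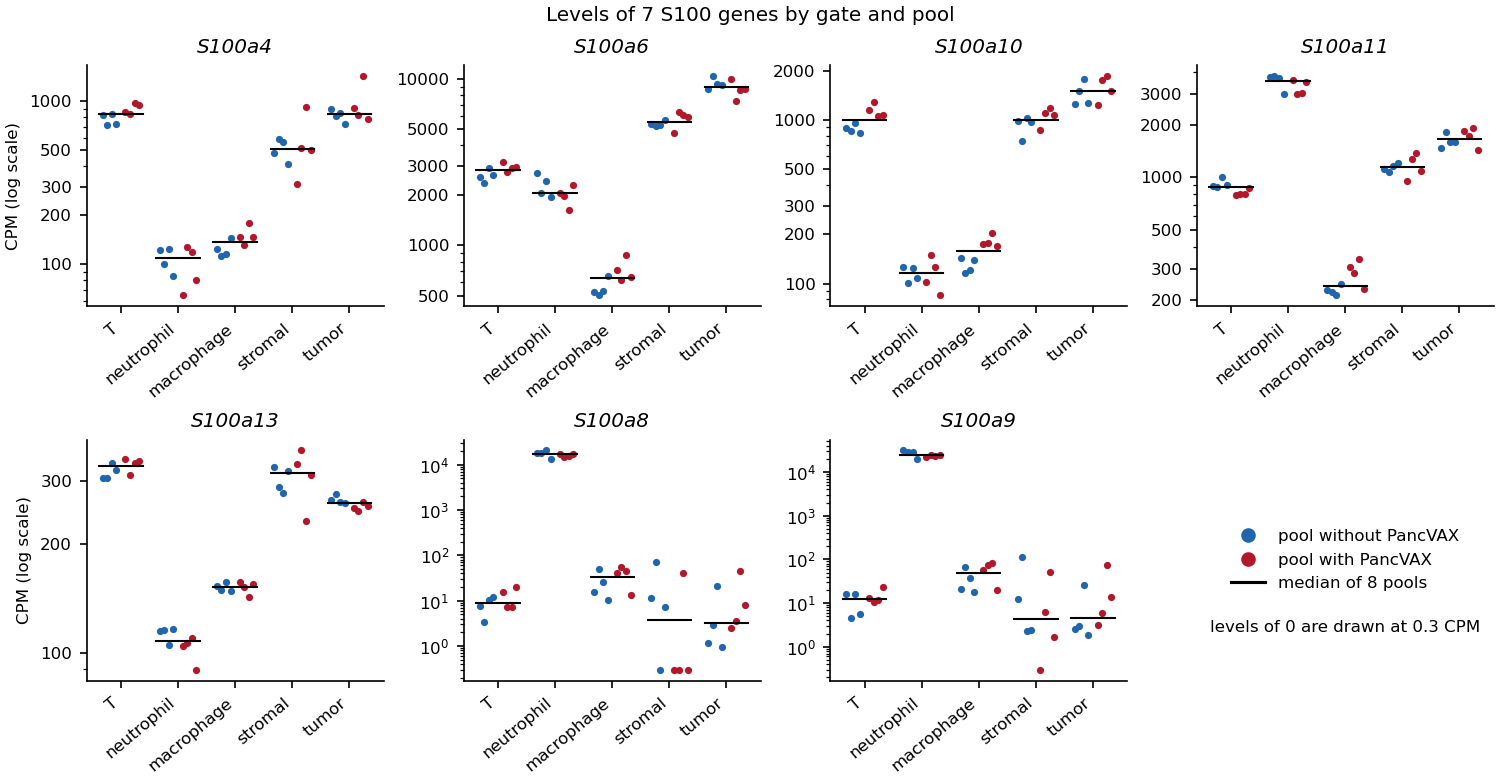
Levels of the 7 members in CPM of summed UMIs (log scale, a separate axis per gene) in 5 gates; points are pools, blue without and red with PancVAX, and lines are medians of 8 pools. *S100a8* and *S100a9* lie at 13442 CPM or more in neutrophils and at 113 CPM or less in the other gates.

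*S100a11*, whose protein binds annexin A1, was also highest in neutrophils. Its level there was 2981 to 3771 CPM (median 3544), 2.15-fold above the tumor gate at 1430 to 1908 CPM (median 1650). The ranges of these gates did not overlap, nor did those of the tumor gate and the stromal gate (949 to 1383 CPM, median 1142). The T gate, at 791 to 1010 CPM (median 878), overlapped with the stromal gate and lay 3.67-fold above the macrophage gate, at 213 to 344 CPM (median 239).

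*S100a6*, or calcyclin, a binding partner of Cacybp, was highest in the tumor gate, at 7435 to 10429 CPM (median 9023). The stromal gate followed without overlap at 4720 to 6350 CPM (median 5499), 1.94-fold above the T gate at 2386 to 3188 CPM (median 2836). T cells and neutrophils overlapped, the latter at 1642 to 2739 CPM (median 2071). The macrophage gate was lowest at 501 to 878 CPM (median 634), 3.27-fold below the neutrophils. Of the tumor gate cells 99.95% held a *S100a6* UMI, beside 43.48% of B gate cells, and when every cell was thinned to 1000 UMIs these shares were 98.23% and 26.69%.

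*S100a10*, the light chain that joins annexin A2 in a membrane complex, followed the order of *S100a6* in its first 3 gates. It stood at 1237 to 1850 CPM (median 1497) in the tumor gate, 746 to 1186 CPM (median 1003) in the stromal gate and 829 to 1284 CPM (median 1002) in the T gate. The stromal and T gates overlapped. T cells lay 6.36-fold above macrophages (117 to 205 CPM, median 158), and macrophages overlapped with neutrophils (84.8 to 150 CPM, median 116).

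*S100a4*, which binds nonmuscle myosin, separated the gates into a high and a low set. T cells (716 to 973 CPM, median 838), the tumor gate (726 to 1426 CPM, median 837) and the stromal gate (312 to 919 CPM, median 510) overlapped with their neighbors. The stromal gate lay 3.69-fold above the macrophage gate at 112 to 180 CPM (median 138), which overlapped with neutrophils at 64.7 to 128 CPM (median 110). At 1000 UMIs per cell 44.28% of T cells, 10.28% of macrophages, 8.29% of neutrophils and 5.77% of B cells held a *S100a4* UMI; as deposited the shares were 69.25%, 22.35%, 12.42% and 11.81% at median depths of 3630, 4046, 1488 and 2038.5 UMIs.

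*S100a13*, which takes part in the release of interleukin 1α and Fgf1 from cells, varied least. Its medians ran from 108 CPM in neutrophils (89.9 to 117 CPM) through 152 CPM in macrophages (143 to 157 CPM) to 328 CPM in T cells (305 to 345 CPM). The stromal gate (232 to 363 CPM) overlapped with T cells and with the tumor gate (246 to 275 CPM), which lay below T cells without overlap. Over the 7 genes, 13 of 28 neighboring pairs of gates did not overlap, without a test.

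The effect of PancVAX was first tested in whole gates, and no member was called in any of them. The test was edgeR's quasi-likelihood test on summed UMIs with Benjamini-Hochberg adjustment over all genes, both antibodies as covariates, and a gene was called at an adjusted P below 0.05 and an absolute log2 fold change above 0.5. Of 35 pairs of member and gate 0 were called, 8 had an unadjusted P below 0.05, and DESeq2 called 0. Over all genes the shares called were 9.66% in T cells, 0.232% in neutrophils, 0.343% in macrophages, 0.0539% in the stromal gate and 0% in the tumor gate. In sums over cells, fewer cells of a kind and less RNA per cell cannot be told apart.

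In the T gate, *S100a10* and *S100a11* moved in opposite directions by less than the size limit. *S100a10* was 829, 853, 888 and 954 CPM without PancVAX (in the order Isotype Control, Anti-PD-1, Anti-CTLA-4 and both antibodies) and 1155, 1050, 1284 and 1069 CPM with PancVAX in the same order. The vaccinated pools were all higher, by 0.30 on the log2 scale (SE 0.06, edgeR adjusted P = 0.00733). *S100a11* was 902, 887, 897 and 1010 CPM without PancVAX and 791, 800, 803 and 870 CPM with it. The vaccinated pools were all lower, and the log2 change was -0.25 (SE 0.05, edgeR adjusted P = 0.00611). *S100a4* changed by 0.15 (SE 0.07, adjusted P = 0.136), *S100a6* by 0.10 and *S100a13* by 0.00. The gate did not hold the same cells in both arms: in the same order, 110 of 935, 199 of 1238, 235 of 1427 and 235 of 1475 T gate cells were CD8+ Ly6c2 Ccl5 cells without PancVAX, and 807 of 1561, 1317 of 2805, 928 of 1956 and 1125 of 2333 with it. The calprotectin genes were not called there either, at 0.52 (SE 0.39, adjusted P = 0.381) for *S100a8* and 0.44 (SE 0.27, adjusted P = 0.289) for *S100a9*. Without the PancVAX + Anti-CTLA-4 pool *S100a9* was called (0.84). In T cells with no UMI of a neutrophil marker both were called, at 1.43 and 1.30. These 13413 cells held 221 *S100a8* and 266 *S100a9* UMIs, or 4.07 and 4.90 CPM. B cells chosen the same way stood at 3.87 and 9.59 CPM.

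**Figure D2:**
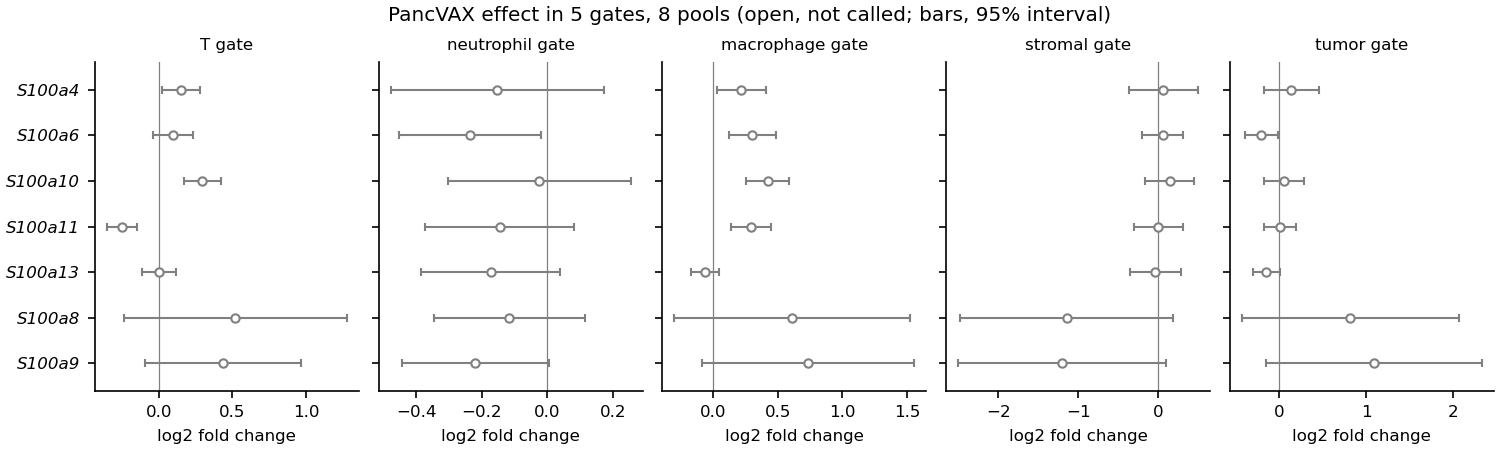
Log2 fold change of each member with PancVAX in 5 gates (x axis, a separate scale per gate), from 8 pools. Points are estimates, and open points were not called. Bars are 95% intervals by a normal approximation, which with so few pools are narrower than the test implies. *S100a10* and *S100a11* lie on opposite sides of 0 in the T gate, and both lie above 0 in the macrophage gate.

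In macrophages, *S100a10* was 139, 117, 144 and 121 CPM without PancVAX and 176, 205, 176 and 171 CPM with it, in the same order of antibodies. The groups did not overlap, but the change of 0.42 (SE 0.08) did not pass (edgeR adjusted P = 0.0682). *S100a6* changed by 0.30 (SE 0.09, adjusted P = 0.160) and *S100a11* by 0.30 (SE 0.08, adjusted P = 0.121), and 6 of 7 members had positive estimates, with a median of 0.30 against 0.00 over all genes. The summed level of the neutrophil genes, which include the neutrophil gate markers that limit the cells kept as macrophages, was also higher in vaccinated macrophages, at 205 to 306 CPM against 149 to 184 CPM. In macrophages without a UMI of a neutrophil gate marker the changes were 0.49 for *S100a10*, 0.31 for *S100a6* and 0.37 for *S100a11* (edgeR adjusted P = 0.0709, 0.171 and 0.102), and none was called. In neutrophils the estimates of all 7 members were negative, with a median of -0.15 against 0.00 over all genes. They were -0.12 for *S100a8* (SE 0.12, edgeR adjusted P = 0.870) and -0.22 for *S100a9* (SE 0.11, adjusted P = 0.682).

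Neither antibody gave a called member either. Anti-PD-1 gave 0 of 35 called, with 6 below an unadjusted P of 0.05 and 0 by DESeq2, edgeR called 0% of all genes in T cells, 0.122% in neutrophils, 0% in macrophages, 2.60% in the stromal gate and 0.00901% in the tumor gate. Its largest member estimates were those of *S100a8* and *S100a9* in the tumor gate, at 3.23 (SE 0.65, adjusted P = 0.374) and 3.06 (SE 0.64, adjusted P = 0.384) on the log2 scale. These rest on few pools. Both were called when the triple combination (4.33 and 4.04) or the Anti-PD-1 pool (3.58 and 3.38) was left out. *S100a8* there was 0.945, 2.97, 1.18 and 20.7 CPM without PancVAX and 2.46, 44.4, 3.61 and 7.89 CPM with it, and the high pools were PancVAX + Anti-PD-1 and Anti-PD-1 + Anti-CTLA-4. Anti-CTLA-4 gave 0 of 35 called, with 7 below an unadjusted P of 0.05 and 0 by DESeq2; all genes were called at 0% in T cells, neutrophils, macrophages and the stromal gate and at 0.00901% in the tumor gate. Its lowest unadjusted member P-values were those of *S100a8* and *S100a9* in the stromal gate, with changes of -2.77 (SE 0.82, edgeR adjusted P = 0.888) and -2.43 (SE 0.78, adjusted P = 0.967), from 0 to 64 *S100a8* UMIs per pool. Without the Anti-CTLA-4 pool that of *S100a8* was called, at -7.74 (adjusted P = 0.0195).

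Within T cell states the picture differed, and *S100a4*, *S100a6*, *S100a10* and *S100a11* rose with PancVAX in the CD8+ cells that carried naive markers. These 1285 cells held at least 2 of 5 naive T cell markers, among them *Ccr7*, *Lef1*, *Tcf7* and *S1pr1*, and neither *Pdcd1* nor *Havcr2*. *S100a4* was 93.7, 147, 169 and 119 CPM without PancVAX (Isotype Control, Anti-PD-1, Anti-CTLA-4, both antibodies) and 366, 889, 566 and 762 CPM with it. Every vaccinated pool lay above every unvaccinated pool, the fold change was 4.22, and the log2 fold change was 2.08 (SE 0.15, edgeR adjusted P = 1.50e-11). *S100a6* was 789, 623, 702 and 1026 CPM without and 2174, 2658, 2063 and 2703 CPM with PancVAX, a 2.75-fold rise without overlap (log2 1.46, SE 0.11, adjusted P = 1.23e-11). *S100a10* rose 1.99-fold, from 382, 444, 415 and 504 CPM to 915, 955, 1008 and 992 CPM (log2 0.99, SE 0.10, adjusted P = 9.17e-09). *S100a11*, which was lower with PancVAX in the T gate, rose 1.72-fold here, from 220, 218, 233 and 286 CPM to 408, 488, 439 and 503 CPM (log2 0.79, SE 0.11, adjusted P = 3.48e-06). *S100a13* changed by 0.19 (SE 0.11, adjusted P = 0.375) and *S100a9* by -0.71 (SE 0.54, adjusted P = 0.517), and *S100a8*, with 16 UMIs, was not tested. Over all genes 6.34% were called in this state, beside 4 of the 6 members tested. Without the Isotype Control and PancVAX pools the 4 changes were 2.15, 1.50, 0.94 and 0.78 and all were called. That fit still holds the triple combination, whose contrast with PancVAX was also known when the members were chosen.

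**Figure D3:**
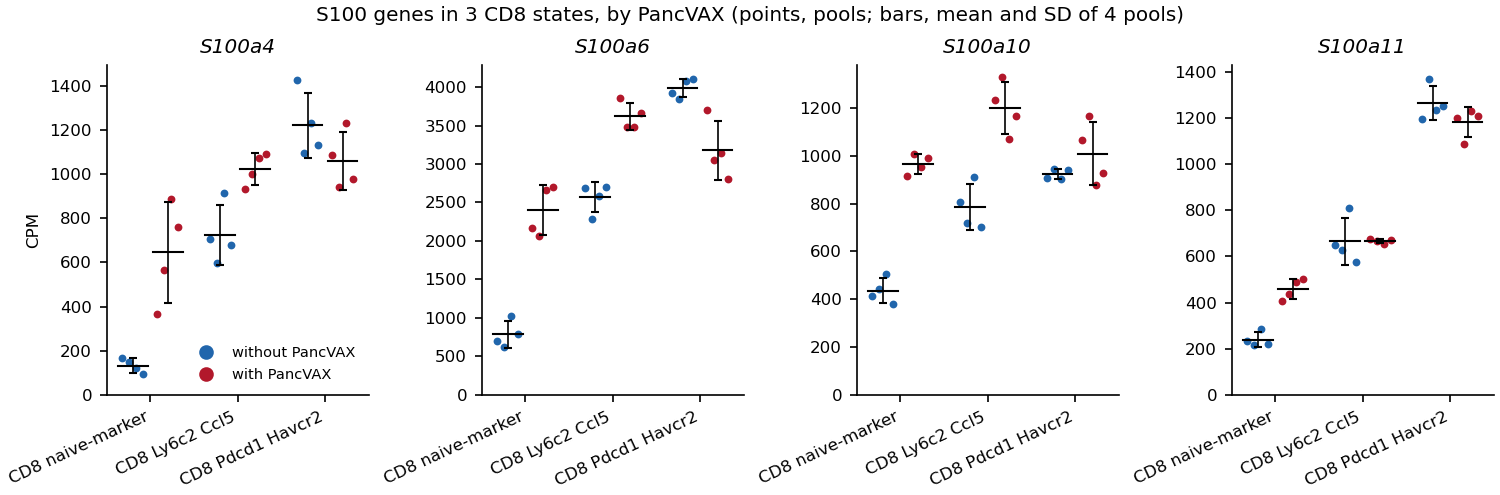
CPM of 4 members in 3 CD8+ states; points are pools, blue without and red with PancVAX, and bars give the mean and SD of 4 pools. In naive-marker cells the red points lie above the blue ones for all 4 genes, whereas in Pdcd1 Havcr2 cells the red *S100a6* points lie below.

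The naive-marker state did not hold the same cells in both arms. *Ccl5*, a chemokine of effector and memory cells, was found in 73.65% to 91.74% of these cells with PancVAX and in 41.05% to 73.26% without. *S1pr1*, the receptor for exit from tissue and 1 of the markers that define the state, was found in 62.16% to 80.87% with and 45.03% to 52.63% without PancVAX, and *Ccr7*, a homing receptor of naive cells and another of these markers, in 26.52% to 43.44% with and 54.65% to 71.93% without. The share of cells with a *S100a4* UMI was 44.59% to 72.17% with and 22.11% to 32.56% without PancVAX, at median depths of 3700.5 to 5548.5 UMIs per pool. When cells with a UMI of *Ccl5* or *Ly6c2* were left out, 34, 44, 27 and 5 cells remained without PancVAX and 18, 4, 24 and 23 with it, and the pools with 5 and 4 cells were dropped from the fit. The estimate of *S100a4* then turned, with 1 high pool without PancVAX (Anti-PD-1): it was 24.8, 234 and 69.7 CPM in Isotype Control, Anti-PD-1 and Anti-CTLA-4 and 34.7, 47.4 and 130 CPM in PancVAX, PancVAX + Anti-CTLA-4 and the triple combination (log2 -0.88, edgeR adjusted P = 0.731). The shares of these cells with a *S100a4* UMI were 8.82%, 13.6% and 11.1% without and 11.1%, 12.5% and 30.4% with PancVAX in the same pools, so the arms overlapped and the highest share was in a vaccinated pool. *S100a6* changed by -0.16 (adjusted P = 0.902), *S100a10* by 0.19 (adjusted P = 0.849) and *S100a11* by 0.49 (adjusted P = 0.689) in these cells. Of the 1091 genes that could be tested there 3 were called, and 98 had an unadjusted P below 0.05. With 3 of the 5 markers asked for, *S100a4*, *S100a6* and *S100a10* remained called at 2.04, 1.10 and 0.63, and *S100a11* fell just under the size limit at 0.50 (adjusted P = 0.0360).

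In the Ly6c2 Ccl5 state, 4956 CD8+ cells without *Havcr2*, the changes were smaller and 0 of 7 members were called, beside 9.90% of all genes. *S100a4* was 680, 596, 705 and 916 CPM without PancVAX and 931, 1072, 1002 and 1093 CPM with it, a log2 change of 0.38 (SE 0.09, edgeR adjusted P = 0.00380). *S100a6* changed by 0.37 (SE 0.07, adjusted P = 4.63e-04) and *S100a10* by 0.48 (SE 0.08, adjusted P = 2.36e-04), also without overlap of the arms but under the size limit. *S100a9* was lower with PancVAX by an estimate of -1.45 (SE 0.52, adjusted P = 0.0673) and was called at -1.49 (adjusted P = 0.0250) with the antibody combination as a block, and without the Isotype Control and PancVAX pools both *S100a9* (-2.06) and *S100a8* (-1.42) were called. The pools left out there had the other order for *S100a9*. Their whole tumor and Percoll libraries held 0 and 1 UMIs in Isotype Control (0 and 3.86 CPM) and 4 and 53 in PancVAX (3.04 and 34.6 CPM). For *S100a8* these were 2 and 1 UMIs against 10 and 59. Of the 4956 cells 64 held a *S100a9* UMI. In the Pdcd1 Havcr2 state, 758 CD8+ cells with both inhibitory receptors, *S100a6* moved the other way, from 4101, 3849, 3928 and 4077 CPM without PancVAX to 3706, 3140, 3050 and 2809 CPM with it (log2 -0.46, SE 0.08, adjusted P = 0.00302), and was called at -0.53 without the Isotype Control and PancVAX pools. All 7 estimates were negative there and 0 were called, beside 1.62% of all genes. Unadjusted P-values lay below 0.05 for 4 of 7 members in each of these states, and DESeq2 called 0.

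The difference between states was tested itself, with the pool as a block. The vaccine effect in naive-marker cells exceeded that in Pdcd1 Havcr2 cells for *S100a4* by 2.39 (SE 0.19, edgeR adjusted P = 1.30e-10), for *S100a6* by 1.92 (SE 0.13, adjusted P = 1.09e-11), for *S100a11* by 1.01 (SE 0.13, adjusted P = 4.94e-06) and for *S100a10* by 0.99 (SE 0.13, adjusted P = 2.97e-06), with 1.91% of all genes called. Against the Ly6c2 Ccl5 state the differences were 1.67, 1.09, 0.92 and 0.50 in that order, all called, with 2.20% of all genes called. The definitions of the naive-marker and Ly6c2 Ccl5 states do not exclude each other. *Ccl5* was found in 73.65% to 91.74% and *Ly6c2* in 83.71% to 93.04% of naive-marker cells with PancVAX. Cells that met both definitions were summed on both sides, and the P-values do not account for this. DESeq2 also called 8 of the 14 pairs of member and comparison. Without the Isotype Control and PancVAX pools all 8 were called, at 2.52, 2.03, 1.03 and 0.98 against Pdcd1 Havcr2 cells and 1.73, 1.15, 0.98 and 0.52 against Ly6c2 Ccl5 cells. When naive-marker cells with a UMI of *Ccl5* or *Ly6c2* were left out, 0 of the 10 pairs tested were called, with 4 below an unadjusted P of 0.05, and *S100a4* turned to -0.50 and -1.43 (edgeR adjusted P = 1 and 0.401). The call of *S100a10* against Ly6c2 Ccl5 cells was lost without the triple combination (0.48), PancVAX + Anti-PD-1 (0.47), Anti-PD-1 + Anti-CTLA-4 (0.48) or Anti-CTLA-4 (0.45), and without the filter on low counts those of *S100a4* (1.65), *S100a6* (1.07) and *S100a10* (0.48) in this comparison. This test was added after the data had been seen.

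CD4+ T cells without *Foxp3*, 1075 cells, gave 2 called members of 7, beside 1.53% of all genes. *S100a4* was 509, 712, 822 and 1203 CPM without PancVAX and 1003, 1280, 952 and 1462 CPM with it, so the arms overlapped (1.48-fold, log2 0.56, SE 0.13, edgeR adjusted P = 0.0332). *S100a6* was 1392, 971, 1045 and 2180 CPM without and 2077, 2292, 2058 and 2280 CPM with PancVAX (1.58-fold, log2 0.66, SE 0.16, adjusted P = 0.0488). Leaving out 1 pool ended the call of *S100a4* unless that pool was PancVAX + Anti-CTLA-4 or Anti-PD-1 + Anti-CTLA-4, and that of *S100a6* unless it was Anti-PD-1 + Anti-CTLA-4; the estimates ranged from 0.46 to 0.68 and from 0.47 to 0.94. Without the Isotype Control and PancVAX pools *S100a4* was at 0.45 and not called (adjusted P = 0.184), and *S100a6* was called at 0.75. In *Foxp3* positive CD4+ cells, 240 in all, edgeR called 0 of the 5 members tested, with 0 below an unadjusted P of 0.05 and 0 by DESeq2, beside 0.168% of all genes.

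Other gene lists were counted in the same naive-marker cells, which were not alike in both arms. Of 17 effector and memory cytoskeletal genes 11 rose and 0 fell with PancVAX, beside 6.34% of all genes called, with a median log2 change of 0.66 against 0.00 over all genes. The list was chosen with earlier results of these data known, so its count is a description. It was led by *Lgals3* (galectin 3) at 3.95, *Anxa1* (annexin A1, the partner of S100a11) at 2.07 and *Capg* (an actin-capping protein) at 1.84. Of 9 tested S100 partners and receptors 3 rose, *Anxa1*, *Ahnak* (a scaffold bound by the S100a10 complex) at 1.52 and *Anxa2* (the partner of S100a10) at 0.51, which are all counted among the cytoskeletal genes as well. Of 8 naive T cell genes 2 rose and 3 fell, *Satb1* at -0.88 and *Ccr7* at -0.87 among them, although *Ccr7* and 4 other genes of the list also served to define the state. In the whole T gate 9 of the 17 cytoskeletal genes rose and 0 fell, beside 9.66% of all genes called, while no S100 member was called.

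Between cell states within a gate, 22 of 35 member and state pairs were called (edgeR, pool as a block; DESeq2 called 20). Neutrophils gave the largest of these differences. *Siglecf* marks neutrophils that have aged or adapted in tumors, and *Retnlg* those newly arrived from blood; cells with only the first (1956 cells) were compared with cells with only the second (1151 cells). All members but *S100a13* were lower in the Siglecf state, 6 of 7, beside 44.6% of all genes called.

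The change of *S100a6* was the largest. It was 529 to 789 CPM (median 613) in Siglecf neutrophils and 4796 to 6862 CPM (median 5568) in Retnlg neutrophils of the same pools, with no overlap (log2 -3.61, SE 0.08, edgeR adjusted P = 1.30e-27). *S100a11* was 1899 to 2284 CPM (median 2054) against 6674 to 8084 CPM (median 7252), also without overlap (log2 -2.28, SE 0.06, adjusted P = 5.78e-24). Calprotectin was lower as well, though still abundant. *S100a8* stood at 11389 to 16406 CPM against 27475 to 38021 CPM (log2 -1.76, SE 0.06, adjusted P = 1.63e-22) and *S100a9* at 17323 to 28597 CPM against 40617 to 61763 CPM (log2 -1.72, SE 0.06, adjusted P = 2.29e-22). *S100a10* (-1.35, SE 0.19) and *S100a4* (-1.18, SE 0.22), both low in neutrophils, overlapped between the states, and *S100a13* changed by -0.07 (SE 0.15, adjusted P = 0.696). Among the neutrophil genes 15 of 17 were lower in the Siglecf state, a count that includes *Retnlg*, which defines the comparison, and the granule genes *Ngp* (-8.32) and *Camp* (-6.59), and of the cytoskeletal genes 13 of 16 were lower and 1 higher. Median depth was 1814.5 UMIs in Siglecf and 1449 UMIs in Retnlg cells.

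**Figure D4:**
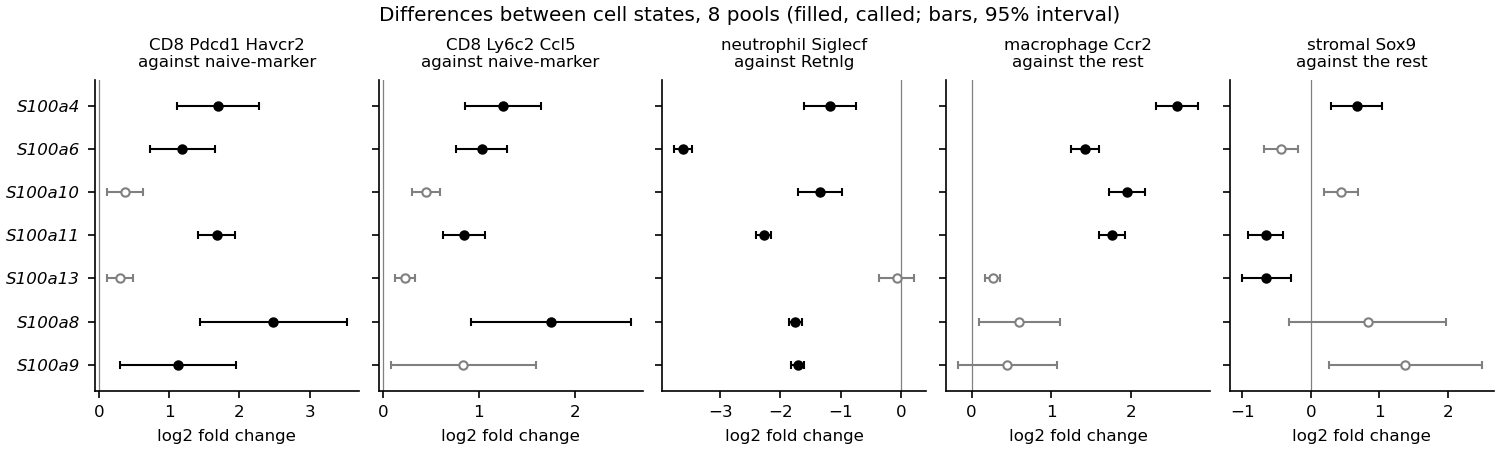
Log2 fold change of each member between 2 states of a gate (x axis, a separate scale per comparison), from 8 pools. Filled points were called, and open points were not. Bars are 95% intervals by a normal approximation, which with so few pools are narrower than the test implies. Nearly all neutrophil values lie left of 0, and those of *S100a4*, *S100a6*, *S100a10* and *S100a11* in Ccr2 macrophages lie right of 1.

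In macrophages the same 4 genes marked the cells with *Ccr2* or *Ly6c2*, genes of blood monocytes. *S100a4* was 331 to 546 CPM (median 434) in these 2017 cells and 57.1 to 148 CPM (median 67.2) in the other 12104, a 5.98-fold difference without overlap (log2 2.58, SE 0.13, edgeR adjusted P = 7.84e-12). *S100a10* was 325 to 515 CPM against 71.8 to 180 CPM (log2 1.95, SE 0.12, adjusted P = 7.30e-11), *S100a11* 493 to 744 CPM against 145 to 298 CPM (log2 1.76, SE 0.08, adjusted P = 1.96e-12), and *S100a6* 1102 to 1652 CPM against 378 to 821 CPM (log2 1.43, SE 0.09, adjusted P = 1.31e-10). None of these overlapped. *S100a8* (0.60, SE 0.26, adjusted P = 0.0983) and *S100a9* (0.45) were not called, although *S100a8* was without the Anti-PD-1 + Anti-CTLA-4 pool (0.83), and *S100a13* differed by 0.27, under the size limit. The share of all genes called was 11.9%, against 4 of 7 members. Without the upper limits on genes and UMIs, the difference of *S100a6* shrank to 0.20 (adjusted P = 0.0118). Of the cytoskeletal genes 13 of 17 were higher and 0 lower, led by *Crip1* (2.85), *Itgb7* (2.81) and *Ahnak* (2.39), and 3 of 9 tested neutrophil genes were higher and 1 lower. Of 7 tested naive T cell genes 5 were higher and 0 lower, *Tcf7* at 1.52 and *Satb1* at 1.31 among them. Their part in the result was not tested. *Ly6c2* also served to define a CD8+ T cell state. Median depth was 5370 UMIs in the macrophages with *Ccr2* or *Ly6c2* and 3698.5 UMIs in the others.

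Pdcd1 Havcr2 cells and Ly6c2 Ccl5 cells carried more of most members than naive-marker cells. In Pdcd1 Havcr2 cells *S100a4* was 940 to 1427 CPM (median 1115) against 93.7 to 889 CPM (median 267) in naive-marker cells, without overlap (log2 1.69, SE 0.30, edgeR adjusted P = 1.16e-04). *S100a11* was 1088 to 1371 CPM (median 1219) against 218 to 503 CPM (median 347), also without overlap (log2 1.68, SE 0.14, adjusted P = 4.23e-09), and *S100a6* differed by 1.18 (SE 0.24, adjusted P = 4.85e-04). *S100a10* (0.37) and *S100a13* (0.29) were below the size limit. With *S100a8* at 2.48 (SE 0.54, adjusted P = 9.39e-04) and *S100a9* at 1.12 (SE 0.42, adjusted P = 0.0445), 5 of 7 members were called, beside 26.2% of all genes; the *S100a8* difference rested on 87 UMIs in the first state and 16 in the second. The call of *S100a9* was lost without Isotype Control (0.97), Anti-CTLA-4 (1.04), PancVAX + Anti-PD-1 (0.95) or the triple combination (0.84), and that of *S100a8* when a gate asked for 50% of the marker UMIs (0.95). Of 3 tested neutrophil genes 2 were also higher, *Il1r2* at 2.60 and *Pglyrp1* at 1.79. Over the whole T gate *Pglyrp1* stood at 79.7% of its neutrophil level and *Il1r2* at 0.407%. Of 17 cytoskeletal genes 4 were higher and 6 lower in Pdcd1 Havcr2 cells. In Ly6c2 Ccl5 cells 4 of 7 members were called, beside 6.43% of all genes: *S100a8* at 1.75 (1.29 and not called without the Anti-PD-1 + Anti-CTLA-4 pool), *S100a4* at 1.25, *S100a6* at 1.03 and *S100a11* at 0.84. Of 17 cytoskeletal genes 6 were higher and 0 lower there. A Ly6c2 Ccl5 cell could also be a naive-marker cell, and such cells were summed on both sides. The P-values of this comparison do not account for that.

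In the stromal gate the members split. The 577 cells with *Sox9*, a transcription factor of cartilage and progenitor cells, had more *S100a4*, at 477 to 1103 CPM (median 562) against 125 to 541 CPM (median 395; log2 0.66, SE 0.19, edgeR adjusted P = 0.0173). They had less *S100a11*, at 760 to 1297 CPM (median 948) against 1116 to 1637 CPM (median 1550; log2 -0.66, SE 0.13, adjusted P = 0.00103), and less *S100a13* (-0.65, SE 0.18, adjusted P = 0.0155). The ranges overlapped for all 3, and 20.8% of all genes were called. The call of *S100a4* was lost without PancVAX + Anti-PD-1 (0.55) or Anti-CTLA-4 (0.59), that of *S100a13* without the triple combination (-0.49) or PancVAX + Anti-CTLA-4 (-0.53), and each of the 3 calls in Percoll libraries alone. *S100a6* (-0.44) and *S100a10* (0.44) stayed under the size limit. Of the other S100 genes, *S100a1*, known from muscle, was higher at 0.86 and *S100a16* lower at -0.81. Of 16 tested cytoskeletal genes 5 were lower and 0 higher. Stromal markers kept out of the gates summed to 543 to 1351 CPM (median 1116) in Sox9 cells and 3341 to 15300 CPM (median 9121) in the others. Their median in the tumor gate was 534.5 CPM. Such tumor markers had medians of 19.1 CPM in Sox9 cells and 7.48 CPM in the others, with overlap. The part of these differences in the result was not tested.

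The small amounts of calprotectin RNA outside neutrophils were set beside the B gate, the neutrophil gate and all barcodes of a library. Free RNA itself was not measured. In the T gate 165 of 13730 cells held a *S100a8* UMI (1.20%) and 178 a *S100a9* UMI (1.30%), against 0.597% and 1.71% of B cells, which should lack both. Thinned to 1000 UMIs per cell, the *S100a8* shares were 0.575% in T cells, 1.28% in macrophages and 0.278% in B cells. The *S100a9* share of T cells lay below that of B cells, also when thinned (0.553% against 0.795%), whereas its summed level was 13.3 CPM in T cells and 9.84 CPM in B cells, and the highest T cell held 78 *S100a9* UMIs and the highest B cell 5. Most of these cells held 1 UMI, and a few held many. In T cells 120 of the 165 cells held a single *S100a8* UMI and the highest 43, and in macrophages 183 of 320 cells held 1 and the highest 110, whereas the highest of 15 B cells held 5.

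These values moved with the way cells were assigned. The median *S100a8* level over libraries was 7.97 CPM in the T gate, 27.8 CPM when a gate asked for 50% of the marker UMIs and 3.00 CPM at 90%, and in macrophages it was 26.5, 51.4 and 9.65 CPM. In the 6269 cells found as T cells by a TRB contig, from the 8 Percoll libraries and with no limit on other markers, it was 51.1 CPM, and 2.36% held a *S100a8* and 2.52% a *S100a9* UMI.

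Much of this RNA lay in cells with neutrophil markers. Against 10.4 CPM in all T gate cells, *S100a8* was 4.07 CPM in those without a UMI of any neutrophil gate marker, and *S100a9* was 4.90 against 13.3 CPM. In macrophages the values went from 31.3 to 5.22 CPM and from 45.8 to 7.27 CPM, and in the stromal gate from 25.9 to 2.41 CPM and from 36.5 to 2.61 CPM. Summed over libraries the tumor gate kept more, at 8.89 of 14.3 CPM and 14.3 of 22.7 CPM, and B cells were at 3.87 CPM and 9.59 CPM, beside 3.83 and 9.84 CPM in all of them. The PancVAX + Anti-PD-1 pool held 336 of the 509 *S100a8* and 561 of the 809 *S100a9* UMIs of the tumor gate. As medians over libraries, cells without a neutrophil marker were at 1.42 and 2.005 CPM in the tumor gate. Such medians were 2.98 and 3.42 CPM in T cells and 3.70 and 3.70 CPM in macrophages. *S100a9* made up 59.96% of the UMIs of both genes in neutrophils, 56.02% in T cells (95% exact binomial interval 53.29% to 58.72%), 59.43% in macrophages (58.04% to 60.81%), 58.48% in the stromal gate, 61.38% in the tumor gate and 72.0% in B cells (60.44% to 81.76%). These intervals cover counting error only.

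**Figure D5:**
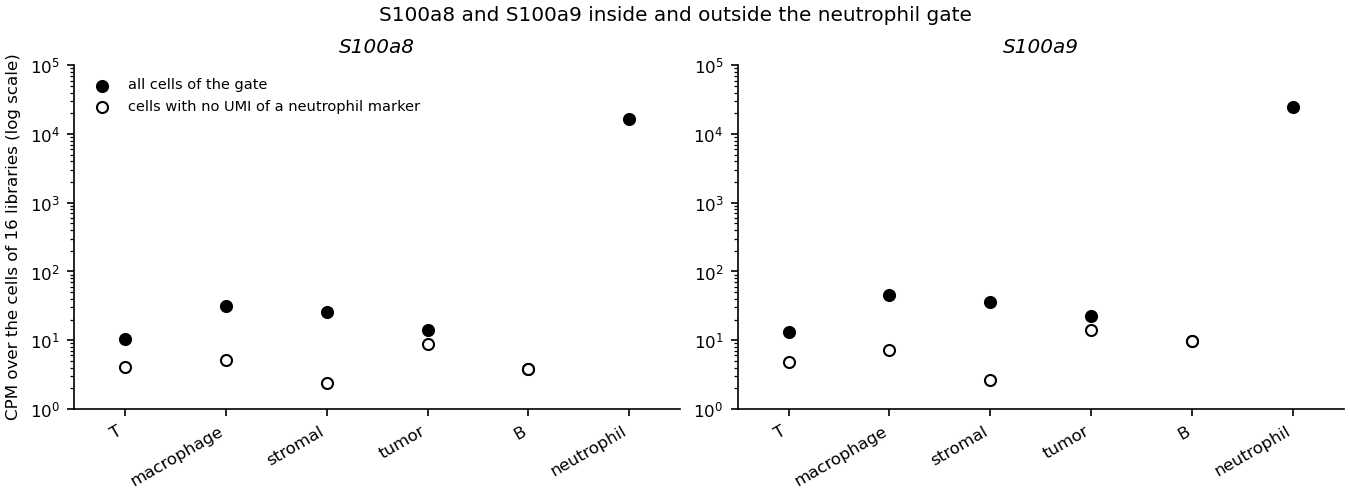
CPM (log scale) of *S100a8* and *S100a9* over the cells of 16 libraries in 6 gates; filled points are all cells of a gate, open points cells with no UMI of a neutrophil gate marker. The open points lie below the filled ones in T cells, macrophages, stromal and tumor gates, and on them in B cells. The PancVAX + Anti-PD-1 pool held 336 of the 509 *S100a8* and 561 of the 809 *S100a9* UMIs of the tumor gate.

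Relative to neutrophils, T cells held 0.0623% of the *S100a8* level and 0.0530% of the *S100a9* level, and macrophages 0.187% and 0.183%. The T cell levels of 11 other neutrophil genes kept out of the gates ran from 0% to 79.7% of the neutrophil level, the last for *Pglyrp1*, a peptidoglycan-binding protein, which was also at 20.3% in B cells. *Il1r2*, a decoy receptor and the most abundant of them, was at 0.407% of its neutrophil level in T cells and 1.64% in macrophages, and *Lcn2*, a granule protein, at 0.0806% and 0.358%. Across the 8 libraries of a preparation, 20 relations between a gate's level and that of all barcodes of the library, neutrophils included, were tested by exact permutation, two-sided. The lowest adjusted P was 0.0714, for *S100a9* in macrophages of whole tumor libraries (Pearson r = 0.895, exact permutation P = 0.00357; Spearman rho = 0.905, P = 0.00456; r = 0.839 without the 2 libraries farthest from the median), and no relation passed after Benjamini-Hochberg adjustment.

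Percoll libraries held more calprotectin RNA in the T gate. *S100a8* was 0.416 to 10.3 CPM (median 6.40) in whole tumor and 5.46 to 25.8 CPM (median 11.4) in Percoll libraries, a 2.13-fold difference (log2 1.09, SE 0.23, edgeR with treatment as a block, adjusted P = 0.00189). *S100a9* was 1.56 to 15.7 CPM (median 4.80) against 6.33 to 33.6 CPM (median 18.7; log2 1.41, SE 0.29, adjusted P = 0.00149). The ranges overlapped for both. Both calls were lost when the share of marker UMIs that a gate asks for was 50% (0.44 and 0.67) or 90% (0.65 and 0.44) in place of 75%, and that of *S100a8* also in cells without a neutrophil marker (0.67). *Hdc*, a neutrophil gate marker, was the only called gene of 5 tested neutrophil genes, at 1.07.

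In neutrophils *S100a4* was lower after Percoll, at 42.2 to 124 CPM (median 84.9) against 82.6 to 178 CPM (median 129; log2 -0.66, SE 0.16, adjusted P = 0.00333), and *S100a6* (-0.33) and *S100a10* (-0.48) had adjusted P-values below 0.05 under the size limit. Genes of lymphocytes were lower in the same sums, 2 of 5 tested naive T cell genes (*Ccr7* at -2.22 and *Il7r*, the interleukin 7 receptor, at -1.58) with 0 higher, and of 17 cytoskeletal genes 4 were lower and 1 higher. Their part in the result was not tested. These 3 calls were all of 35 (DESeq2 called 3), while all genes were called at 6.54% in T cells, 13.6% in neutrophils, 4.29% in macrophages, 0.210% in the stromal gate and 2.64% in the tumor gate. No difference in the vaccine effect between preparations was called for any member in T cells, neutrophils or macrophages. Of 21 tests 0 were called by edgeR and 0 by DESeq2, and 4 had an unadjusted P below 0.05. All genes were called at 0.00958%, 0% and 0%. In macrophages all 7 estimates were positive (median 0.306 against 0.005 over all genes), and 3 of the 4 low P-values lay there. This test took the 16 libraries as units without a block. Its P-values do not account for the pairing of libraries within a pool.

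Of the other 11 symbols starting with S100, few were expressed. *S100a1* had a median of 239 CPM in the tumor gate (226 to 313 CPM), 216 CPM in the stromal gate, 80.4 CPM in macrophages, 40.1 CPM in neutrophils and 14.8 CPM in T cells. *S100a16*, with medians of 236 CPM in the stromal gate and 198 CPM in the tumor gate, had medians of at most 12.5 CPM elsewhere (highest pool 21.7 CPM), and *S100g* had a median of 41.5 CPM in the tumor gate (10.9 to 136 CPM). In T cells *S100a16* rose with PancVAX by 0.81 and *S100a1* fell by 0.54 on the log2 scale, 2 of 4 tested, beside 9.66% of all genes called. *S100a16* had a median of only 4.85 CPM there.

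The genes most like each member were sought over 40 sums of 5 gates in 8 pools, among 5823 genes, as Pearson r of log2(CPM + 1). The 40 sums share libraries and mostly separate gates, so these values describe cell types. *S100a8* was most like *S100a9* (r = 0.991), *Hdc* (0.975), the histamine enzyme, and *Acod1* (0.970), which makes itaconate. *S100a4* was most like *S100a10* (r = 0.971), *Arl6ip5* (0.970) and *Serbp1* (0.969), and *S100a10* like *Fkbp3* (0.980), *Dusp10* (0.975) and *Arl6ip5* (0.972). *S100a6* was most like *Spint2* (0.981) and *Tpm4* (0.975), a tropomyosin, *S100a11* like *Bri3bp* (0.957) and *Csf1* (0.950), and *S100a13* like *Vps13a* (0.963) and *Pde7a* (0.962).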

How the data were processed

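Cells of Panc02 tumors from 8 treatments were read as 16 5′ single-cell RNA libraries; the T cell receptor libraries served only to find T cells with a TRB contig. The authors deposited UMI counts per gene and barcode, made with Cell Ranger 4.0.0 on mm10 according to the labels, with no further normalization; Seurat is named without a version. The members and gene lists were chosen with earlier results of these data known. Barcodes were kept at 200 to 3000 genes, 1000 to 10000 UMIs, at most 10% mitochondrial UMIs and no hemoglobin UMI, the upper limits standing in for a doublet caller, which was not run. A cell entered a gate with at least 3 UMIs from at least 2 of its markers, holding at least 75% of its marker UMIs over 6 gates. Depths were 77132398 to 176233225 UMIs per library.

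UMI counts were summed by gate or state and pool (at least 10 cells) or library, given as CPM of all UMIs of the sum, and tested with edgeR 4.0.16 (TMM, filterByExpr, quasi-likelihood, Benjamini-Hochberg over all genes tested). The vaccine and each antibody entered as additive terms, states were compared with the pool as a block, and preparations with the treatment as a block. The vaccine effect between preparations was fitted over 16 libraries with additive terms and no block. The study tested single cells as replicates, whereas pools were used here. The test was checked on simulated data. Named genes were the 7 members in every comparison, up to 3 called genes of largest change per list and comparison (other S100 genes, partners and receptors, neutrophil, cytoskeletal and naive T cell genes), and the 3 genes most like each member with a mean of at least 20 CPM. The values of 1 gene of the naive T cell list are not reported here. Shares have 95% exact binomial intervals. Alternatives were DESeq2 1.42.0, RLE scaling, no filter, each preparation alone, other cell limits and gate shares, and leaving out each pool. Python 3.11.15, scipy 1.17.1 and R 4.3.3 were used. GRCm38.p6 coordinates and promoters came from RefSeq.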

Additional observations from a re-analysis of the deposited data

Results flagged for a closer look

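Of 139 groups of 4 pools (7 members by gate and state, with and without PancVAX), 18 held a pool far from the other 3 by Dixon's criterion, where chance gives about 1 in 20 for continuous values. In 4 of the 18 the other 3 pools were all at 0, and that rate does not apply to such sparse groups. The cause was not tested in any of them.

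Of these, 12 concerned calprotectin at low levels outside neutrophils. *S100a8* reached 41.1 CPM (61 UMIs) in the stromal gate of PancVAX + Anti-PD-1, with the other vaccinated pools at 0, and 70.9 CPM (64 UMIs) in that of Anti-PD-1. In the tumor gate it reached 44.4 CPM (336 UMIs) in PancVAX + Anti-PD-1 and 20.7 CPM (98 UMIs) in Anti-PD-1 + Anti-CTLA-4. *S100a9* stood out in the same pools, at 51.2 and 113 CPM in the stromal gate and at 74.1 and 26.0 CPM in the tumor gate. The remaining cases rested on few UMIs: *S100a8* at 29.4 CPM (5 UMIs) in CD4+ *Foxp3* cells of PancVAX + Anti-CTLA-4, and *S100a9* at 41.1 CPM (7 UMIs) in the same cells, at 6.50 CPM (1 UMI) in those of Anti-PD-1 + Anti-CTLA-4 and at 31.5 CPM (17 UMIs) in naive-marker cells of Anti-CTLA-4.

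The other members gave 6 cases. *S100a10* was high at 205 CPM in macrophages of PancVAX + Anti-PD-1 and low at 746 CPM in the stromal gate of Anti-PD-1. *S100a11* was high in T cells under both antibodies, at 870 CPM with and 1010 CPM without PancVAX, and low at 2981 CPM in neutrophils of Isotype Control. *S100a13* was low at 104.9 CPM in neutrophils of Anti-PD-1 + Anti-CTLA-4.

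The vaccine effect differed between CD8+ states by its own test for 4 members, although the naive-marker state held different cells with and without PancVAX and 0 were called once its cells with *Ccl5* or *Ly6c2* were left out. The differences in log2 fold change between naive-marker and Pdcd1 Havcr2 cells were 2.39 for *S100a4*, 1.92 for *S100a6*, 1.01 for *S100a11* and 0.99 for *S100a10*, and those between naive-marker and Ly6c2 Ccl5 cells 1.67, 1.09, 0.92 and 0.50 in that order, all called by edgeR. The naive-marker and Ly6c2 Ccl5 states could share cells.

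Barcodes outside the limits on cells held much of the RNA of some members. They held 92.39% of all UMIs of *S100a4*, 92.99% of *S100a6*, 91.76% of *S100a10*, 90.4% of *S100a11* and 86.87% of *S100a13*, but 22.11% of *S100a8* and 21.25% of *S100a9*, whose UMIs lay to 72.03% and 72.75% in the neutrophil gate.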

How the results depend on the processing

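The treatment effects in whole gates rested on few calls. Against 0 called with PancVAX, there was 1 without the filter on low counts (*S100a9*, tumor gate) and 1 at a gate share of 50% (*S100a8*, T gate), and 2 each at a share of 90% and in cells without a neutrophil marker (*S100a8* and *S100a9*, T gate); leaving out a pool gave 0 to 1, the 1 without PancVAX + Anti-CTLA-4 (*S100a9*, T gate, 0.84). For anti-PD-1 there were 4 without the filter, 2 at a mitochondrial limit of 5% and 0 to 2 when a pool was left out (2 without Anti-PD-1, Anti-CTLA-4 or the triple combination), and for anti-CTLA-4 3 without the filter, 2 without the Isotype Control and PancVAX pools and 0 to 1 when a pool was left out (1 without Anti-CTLA-4). These were all calprotectin genes. In T cell states 6 pairs of member and state were called, all higher, 2 when cells with *Ccl5* or *Ly6c2* were removed from the naive-marker state, and 4 to 7 when a pool was left out, among them 3 lower without PancVAX and 1 lower without Anti-PD-1 or Isotype Control; the turned values were -0.88 for *S100a4* and -0.16 for *S100a6*. *S100a9* in naive-marker cells turned to 2.41 (edgeR adjusted P = 0.00814) at a gate share of 50%. The vaccine effect between CD8+ states gave 8 pairs called, 5 without the filter, 7 to 8 when a pool was left out and 0 without the cells holding *Ccl5* or *Ly6c2*, where *S100a4* turned to -0.50 and -1.43, *S100a6* to -0.074 and *S100a10* to -0.47. Between states 22 pairs were called and 20 to 23 when a pool was left out. For Percoll 3 were called, 2 higher and 1 lower, 5 without the filter, 6 without upper limits, 1 at a gate share of 50% and 3 to 7 when a pool was left out (7 without PancVAX + Anti-PD-1, 2 higher and 5 lower, and 5 without Anti-CTLA-4); without upper limits *S100a8* and *S100a9* in the tumor gate turned to 0.79 and 0.95 (adjusted P = 0.0337 and 0.00852). The causes were not tested. By replicate number no paired analysis was possible because each treatment had 1 pool and its number ties no pools together. With the antibody combination as a block, which sets each vaccinated pool beside the one without PancVAX, 0 were called in gates and 7 in T cell states, 6 higher and 1 lower (*S100a9*, Ly6c2 Ccl5 cells). Cell states were paired by pool and preparations by treatment. Added after the data had been seen were the fits without naive-marker cells holding *Ccl5* or *Ly6c2*, with 3 of 5 markers, with states called at 2000 UMIs, without neutrophil marker cells, without the Isotype Control and PancVAX pools, with the antibody block, and the test between CD8+ states. Of the values between states 700 of 752 kept their side of the threshold, and of those with PancVAX in T cell states 687 of 738. Values called in neither fit were counted as kept even where their direction changed. Levels by gate had 13 separate neighbors, 12 to 15 over 6 alternatives. Depth limits *S100a8* and *S100a9* outside neutrophils, where pools of the T, stromal and tumor gates held 0 to 336 *S100a8* UMIs.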
